A study of Rattus norvegicus with 12 samples.

Results

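The synaptic vesicle release machinery was followed in the cerebral cortex of rats after an embolic stroke, as the RNA of 62 genes among the 17268 in the count table. The genes were chosen by symbol alone: synaptotagmins (Syt), syntaxins (Stx), syntaxin-binding proteins (Stxbp), SNAP proteins (Snap), vesicle-associated membrane proteins (Vamp), synapsins (Syn1, Syn2, Syn3), SV2 glycoproteins (Sv2a, Sv2b, Sv2c), RIM scaffolds (Rims) and complexins (Cplx). The choice by symbol takes in more than the synapse. Of the 62 genes, 39 encode proteins of regulated release, 22 encode SNAREs and partners of membrane traffic that most cell types use, and Snap91 encodes AP180, a clathrin adaptor that acts when vesicles are taken up again. No row was present for Cplx1, Snap23, Stx10, Vamp5 or Vamp9.

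A synaptic vesicle fuses when the vesicle SNARE synaptobrevin (Vamp2 or Vamp1) zips together with a syntaxin such as Stx1a and with SNAP-25 (Snap25) of the plasma membrane. RIM proteins hold vesicles and calcium channels at the active zone, complexins clamp and prime the SNARE bundle, synaptotagmin-1 (Syt1) senses calcium, and synapsins tether the reserve vesicles. Release of glutamate during ischemia is a known source of injury in this tissue, and these genes are among the most abundant messages of cortical neurons.

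All rats were adult male Sprague Dawley animals, and each of the 12 libraries came from a separate rat, with 3 libraries in each of 4 groups. Sham rats had the operation without the clot, and Model rats had a blood clot placed in the middle cerebral artery and no treatment. The rt-PA rats had the clot and received the thrombolytic rt-PA at 10 mg/kg 6 h later, and the rt-PA+Acu rats also received Xingnaokaiqiao acupuncture at 2 h, at Shuigou (GV26) and Neiguan (PC6). The point at PC6 is given as the left side in the labels and as both sides in the study's methods. No group received acupuncture without rt-PA or without a clot, so acupuncture was measured here only on top of rt-PA in rats with a stroke. Cortical tissue was sequenced, from a side and region that are not stated, and in such bulk tissue fewer cells of a type and less RNA per cell cannot be told apart.

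Total counts ran from 11678450 to 13616935 per library. Levels are given as CPM (read counts scaled to a common library total) after trimmed-mean scaling, and they compare the same gene between libraries, not different genes. The quasi-likelihood test of edgeR was run on all genes of a comparison, and p-values were adjusted over them by the Benjamini-Hochberg method. A gene is called where the adjusted p is under 0.05 and the level differs over 2-fold; where the text says that a gene rose or fell, its adjusted p is under 0.05, whatever its fold change. Of the 62 genes, 59 had enough counts to be tested in each comparison, and Cplx4, Syt8 and Syt15 did not.

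Several libraries stood apart. The ribosomal protein gene Rpl39 read 9.86, 11.6 and 9.17 CPM in the Sham libraries and 11.7 CPM in Model replicate 3. In the other 8 libraries it read 42.5 to 71.0 CPM, so Model replicate 3 lay with Sham at this gene. Library rt-PA+Acu replicate 3 lay nearer to the untreated stroke libraries than its group mates did at many release genes, Cplx2 and Rims1 among them. The 6 striatal neuron markers, with Ppp1r1b the most abundant, summed to 369, 968 and 780.3 CPM in Sham and to 155 to 289 CPM in the 9 stroke libraries. All 9 stroke libraries, rt-PA+Acu included, thus lay below the lowest Sham library, and what part this has in the results below was not tested.

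In the stroke cortex without treatment, the release genes did not move as a block. Cplx2, the main complexin of forebrain excitatory synapses, had the largest fall of the tested members, and the active zone scaffolds Rims1 and Rims2, the vesicle SNARE Vamp2, the calcium sensor Syt1 and the synapsins Syn1 and Syn3 fell with it. Syt4, Syt5, Sv2c and Rims4 rose in the same libraries, while Snap25, Sv2a, Sv2b and Syn2 did not pass the test. Among genes of general traffic, Stx11 and Stxbp2, a pair that drives granule release in blood-derived immune cells, rose from very low levels.

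**Figure D1:**
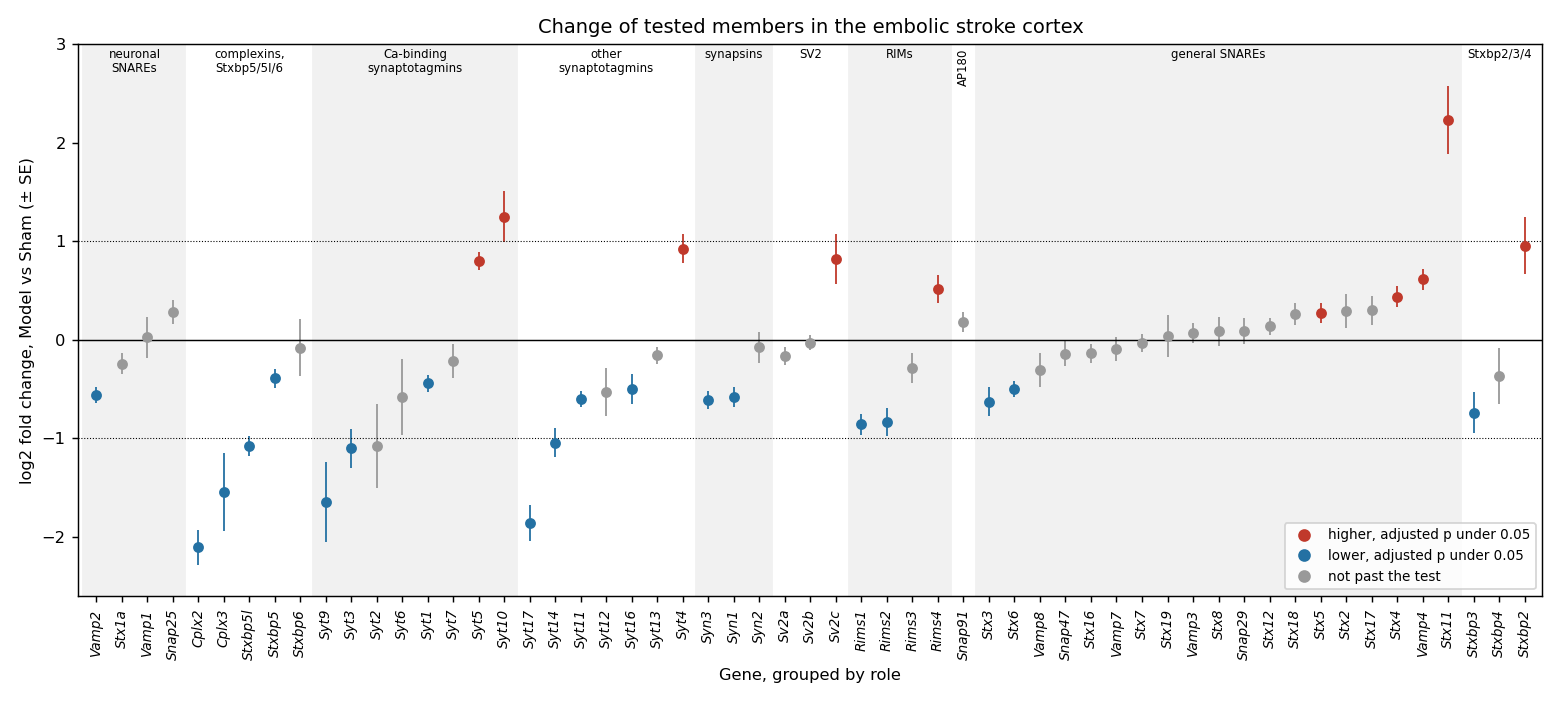
Log2 fold change of tested members in Model against Sham, with its standard error, grouped by role (3 libraries a group). Red points rose and blue points fell with an adjusted p under 0.05; dotted lines mark a 2-fold change. Complexins, most synaptotagmins and Rims1 and Rims2 lie below 0, and Stx11 and Syt10 lie furthest above.

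Against the Sham libraries, 9 of 59 members were called in the Model libraries, where 21.5% of all genes tested were called. By adjusted p alone, 11 members rose and 19 fell, 30 of 59, beside 54.0% of all genes, so the share of members that moved was near that of the whole table. The directions were uneven: 32.2% of members fell, beside 26.6% of all genes, and 18.6% rose, beside 27.3%. The median log2 fold change was -0.14 over the members and 0.01 over all genes. With library size alone these medians were -0.068 and 0.083. Of the 36 tested genes of regulated release, 6 rose and 16 fell, with a median of -0.42. Of the 22 tested genes of general traffic, 5 rose and 3 fell, with a median of 0.08.

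The SNAREs of the synapse differed from each other. Snap25 read 1988, 2126 and 2636 CPM in Sham and 2538, 2756 and 2864 CPM in Model. The highest Sham library lay above the lowest Model library, and the difference of 0.28 log2 did not pass (edgeR quasi-likelihood test, adjusted p = 0.0719). Without Sham replicate 3 it was 0.41 and passed, and with library size alone it was 0.36 and passed (edgeR quasi-likelihood test, adjusted p = 0.014 and 0.0306). Without Sham replicate 1 it was 0.19 (edgeR quasi-likelihood test, adjusted p = 0.25). Its vesicle partner Vamp2 read 987, 911 and 984 CPM in Sham and 627, 645 and 671 CPM in Model. The groups lay well apart, and Vamp2 fell by 0.56 log2 (edgeR quasi-likelihood test, adjusted p = 0.000554). Vamp1, the synaptobrevin that prevails in fast-firing and hindbrain neurons, read 221, 239 and 347 CPM in Sham and 317, 204 and 295 CPM in Model, with full overlap. Their syntaxin partner Stx1a read 399, 329 and 315 CPM in Sham and 309, 290.2 and 277 CPM in Model, lower in each Model library than in any Sham library, but its difference of -0.24 log2 did not pass (edgeR quasi-likelihood test, adjusted p = 0.0872).

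Of the complexins and other regulators that bind the SNARE bundle, 4 of the 5 tested fell. Cplx2 read 569, 720.1 and 663 CPM in Sham and 125, 130.3 and 196 CPM in Model. No Model library came near the Sham range, and Cplx2 fell by 2.11 log2 (standard error 0.18; edgeR quasi-likelihood test, adjusted p = 5.83e-05). Cplx3, a complexin of retinal ribbon synapses and of a few cortical neurons, read 9.13, 9.49 and 16.2 CPM in Sham and 2.14, 3.55 and 6.20 CPM in Model, and it fell by 1.54 log2 (edgeR quasi-likelihood test, adjusted p = 0.0107). Stxbp5l, a tomosyn that competes for syntaxin, read 130.4, 138 and 139 CPM in Sham and 56.8, 63.8 and 71.2 CPM in Model. These libraries lay far apart for their spread, and Stxbp5l fell by 1.08 log2 (edgeR quasi-likelihood test, adjusted p = 8.63e-05). The other tomosyn, Stxbp5, also fell, by 0.39 log2, and Stxbp6 did not pass.

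Promoter sequences are shown for the members with the largest fall and the largest rise, Cplx2 and Stx11, and for Syn1 and Vamp1, the members that hold a full cAMP response element. They are the 250 bases before the start of each gene, 5′ to 3′ on the gene's own strand, from RefSeq on build GRCr8. Cplx2 lies on the minus strand at chr17:10236754-10237003 and Stx11 on the minus strand at chr1:9140220-9140469. Syn1 lies on the plus strand at chrX:3725495-3725744 and Vamp1 on the plus strand at chr4:159698644-159698893. Capitals mark the letters TGACGTCA, the cAMP response element.
Cplx2: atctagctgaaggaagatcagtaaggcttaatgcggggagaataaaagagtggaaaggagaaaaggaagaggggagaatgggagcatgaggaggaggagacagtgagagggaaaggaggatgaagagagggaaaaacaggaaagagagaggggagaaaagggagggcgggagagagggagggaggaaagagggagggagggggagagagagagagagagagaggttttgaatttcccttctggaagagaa
Stx11: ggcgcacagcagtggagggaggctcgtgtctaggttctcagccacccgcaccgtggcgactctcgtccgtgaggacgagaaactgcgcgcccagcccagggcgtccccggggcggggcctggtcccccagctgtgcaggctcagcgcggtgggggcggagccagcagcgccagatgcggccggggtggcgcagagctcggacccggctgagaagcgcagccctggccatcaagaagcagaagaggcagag
Syn1: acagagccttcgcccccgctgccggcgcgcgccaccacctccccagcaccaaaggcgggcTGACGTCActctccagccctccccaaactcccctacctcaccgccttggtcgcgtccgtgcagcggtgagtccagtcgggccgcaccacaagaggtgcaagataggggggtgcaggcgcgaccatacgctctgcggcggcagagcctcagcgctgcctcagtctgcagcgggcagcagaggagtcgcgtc
Vamp1: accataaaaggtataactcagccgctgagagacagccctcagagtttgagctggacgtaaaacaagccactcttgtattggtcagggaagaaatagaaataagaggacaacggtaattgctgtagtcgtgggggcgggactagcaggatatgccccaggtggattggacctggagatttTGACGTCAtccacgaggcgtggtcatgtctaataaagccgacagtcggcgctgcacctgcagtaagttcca
The element ends 183 bases before the start in Syn1 and 64 bases before it in Vamp1. The Cplx2 stretch is rich in purines in its middle and has 2 CpG dinucleotides, while Stx11 has 23, Syn1 24 and Vamp1 11, beside a median of 5 over all promoters in the table and of 15 over the 59 promoters of members.

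Promoters were found for 47 of the 62 members, and the same 250 bases were searched for motifs on both strands. The matches of 8 motifs are given; longer forms of the REST and NRF1 sites were also searched and are not given. TGACGTCA was in 2 of the 47 genes (4.26%), Syn1 and Vamp1, and in 1.78% of all 27457 genes with a promoter. A gene counts once, whatever its number of promoters. Its variant TGACGCA was in 1 gene and in 1.91% of all genes. The AP-1 letters TGANTCA were in 0 of the 47 and in 6.99% of all genes. For the repressor REST, which silences neuronal genes elsewhere, the right-hand letters GGACAGC were in 4 genes, Cplx3, Stx3, Stx17 and Syt6, and in 5.86% of all genes. The left-hand letters of its site, TTCAGCACC, were in 0 of the 47 and in 0.346% of all genes. The E-box CACGTG was in 5 genes (10.6%), beside 6.18% of all genes. The NRF1 letters GCATGCGC were in 5 genes (10.6%), beside 2.48% of all genes. The TATA letters TATAAA were in 5 genes (10.6%), beside 14.1% of all genes. A match is a description of these letters and not a bound site.

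Calcium-binding synaptotagmins split by gene. Syt1 read 565, 502 and 544 CPM in Sham and 410.1, 403 and 365 CPM in Model. The Model libraries all lay lower, and Syt1 fell by 0.44 log2 (edgeR quasi-likelihood test, adjusted p = 0.00328). Syt3, a sensor with high calcium affinity linked to receptor uptake, fell by 1.10 log2 and Syt9, a sensor of fast release in limbic and striatal neurons, by 1.65 log2, from 4.53, 7.12 and 4.37 CPM in Sham to 1.14, 2.71 and 1.24 CPM in Model. Syt10, a sensor for growth factor granules that neurons induce with activity, read 7.36, 7.04 and 6.90 CPM in Sham and 20.9, 18.8 and 10.5 CPM in Model. It was above Sham in each Model library, least so in replicate 3, and rose by 1.25 log2 (edgeR quasi-likelihood test, adjusted p = 0.0042). When Model replicate 3, picked after its values were seen, alone stood for Model, the difference was 0.57 (edgeR quasi-likelihood test, adjusted p = 0.0928); only Sham gives the spread there, so nothing is read from that p. Syt5, which sits on dense-core vesicles, rose by 0.80 log2.

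Syt2, the fast sensor of inhibitory and brainstem terminals, read 12.3, 13.2 and 30.1 CPM in Sham and 4.58, 11.1 and 10.7 CPM in Model. All Model libraries were lower, but Sham replicate 3 stood far above its group, and the difference of -1.07 log2 did not pass (edgeR quasi-likelihood test, adjusted p = 0.0619). Without Sham replicate 1 it was -1.30 and passed (edgeR quasi-likelihood test, adjusted p = 0.049), as it did in DESeq2 (adjusted p = 0.0192). Without Sham replicate 3 it was only -0.54 (edgeR quasi-likelihood test, adjusted p = 0.264). Syt7, the sensor of delayed release, read 140.0, 119 and 113 CPM in Sham and 133, 102 and 83.1 CPM in Model, with overlap. It passed, at -0.41 log2, when Model replicate 1 was left out (edgeR quasi-likelihood test, adjusted p = 0.0353), and was -0.06 log2 without Model replicate 3 (edgeR quasi-likelihood test, adjusted p = 0.747).

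Synaptotagmins that do not act as fast calcium sensors also split by gene. Syt4, induced by depolarisation and found on dense-core vesicles, read 158, 126 and 139 CPM in Sham and 308, 277 and 212 CPM in Model. Each Model library was above each Sham library, and Syt4 rose by 0.92 log2 (edgeR quasi-likelihood test, adjusted p = 0.00121). Syt17, a synaptotagmin of the secretory route in neurons, read 69.5, 47.5 and 46.4 CPM in Sham and 16.1, 12.9 and 15.8 CPM in Model. It fell by 1.86 log2 with no overlap (edgeR quasi-likelihood test, adjusted p = 0.00012). Syt14 fell by 1.04 log2, and Syt11 and Syt16 fell by 0.60 and 0.50 log2.

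Of the synapsins, Syn1 and Syn3 fell and Syn2 did not pass. Syn1 read 685, 558 and 631 CPM in Sham and 434, 429 and 382 CPM in Model. The groups were separate, and Syn1 fell by 0.58 log2 (edgeR quasi-likelihood test, adjusted p = 0.00183). Syn3 read 69.9, 70.4 and 72.1 CPM in Sham, a narrow band, and 48.9, 42.2 and 47.0 CPM in Model, a fall by 0.61 log2 (edgeR quasi-likelihood test, adjusted p = 0.000856). Syn2 read 276, 212 and 217 CPM in Sham and 241, 247 and 176 CPM in Model, and these overlapped.

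At the active zone, Rims1 read 461, 506 and 511 CPM in Sham and 265, 239.6 and 308 CPM in Model. The lowest Sham library was far above the highest Model library, and Rims1 fell by 0.85 log2 (edgeR quasi-likelihood test, adjusted p = 0.000325). Rims2, its close relative, fell by 0.84 log2. Rims3 and Rims4 are short forms that keep only the last domain of the RIM proteins, and Rims4 went the other way. It read 60.8, 52.3 and 49.3 CPM in Sham and 91.0, 71.5 and 67.9 CPM in Model, and rose by 0.52 log2 (edgeR quasi-likelihood test, adjusted p = 0.0134). Rims3 did not pass.

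The SV2 glycoproteins, transporter-like proteins of the vesicle membrane, also parted. Sv2a read 458, 402 and 447 CPM in Sham and 351, 414 and 395 CPM in Model, and Sv2b read 614, 634 and 652 CPM and 615, 646 and 591 CPM; neither passed. Sv2c, the form of basal ganglia and some cortical interneurons, read 6.14, 12.3 and 11.8 CPM in Sham and 19.0, 17.8 and 16.2 CPM in Model. It was higher in each Model library and rose by 0.82 log2 (edgeR quasi-likelihood test, adjusted p = 0.0247). Without Model replicate 1 the difference was 0.76 and without Model replicate 2 it was 0.82, and neither passed (edgeR quasi-likelihood test, adjusted p = 0.0595 and 0.0626). Over all fits without 1 library, the Sv2c difference ran from 0.55 to 0.98 log2.

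Among members of general traffic, Stx11 read 0.889, 1.22 and 1.75 CPM in Sham and 7.25, 6.09 and 4.63 CPM in Model. It was low in Sham and several-fold higher in each Model library, a rise of 2.23 log2 (standard error 0.34; edgeR quasi-likelihood test, adjusted p = 0.000927). Stxbp2, which works with Stx11 in cytotoxic cells and platelets, read 2.42, 2.14 and 2.36 CPM in Sham and 3.28, 4.99 and 5.12 CPM in Model and rose by 0.96 log2 (edgeR quasi-likelihood test, adjusted p = 0.0217). Its adjusted p in this edgeR test was 0.0513 to 0.0743 when any of Sham replicate 1, 2 or 3 or Model replicate 2 or 3 was left out, with differences of 0.85 to 0.99 log2. Vamp4, Stx4 and Stx5 also rose, and Stx3, Stx6 and Stxbp3 fell. Vamp3 and Vamp8, SNAREs of endosomes and secretory granules, did not pass.

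**Figure D2:**
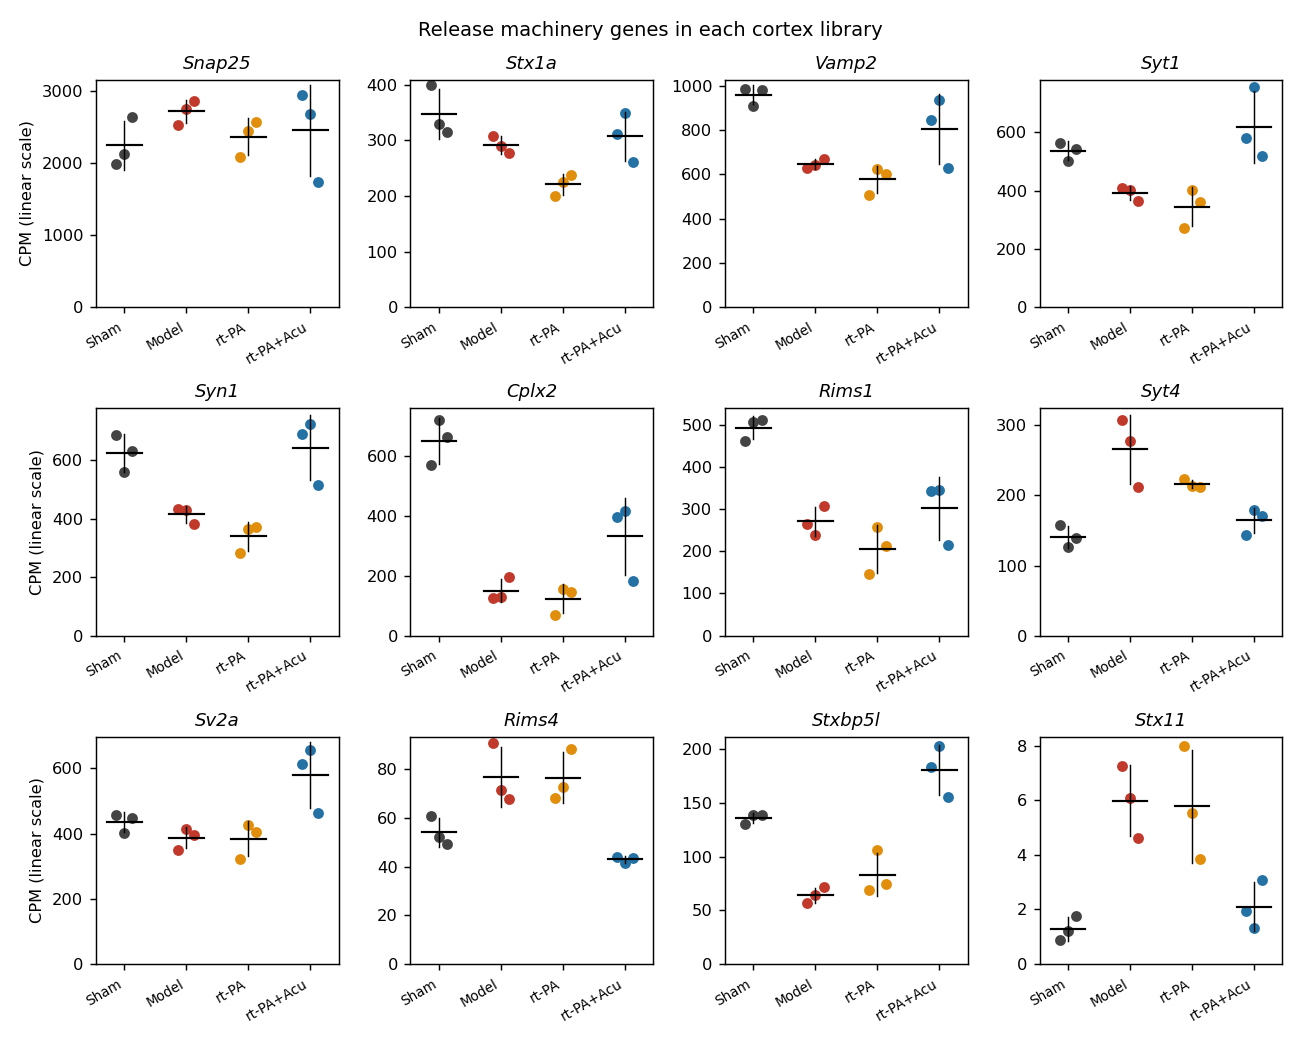
CPM on a linear scale of 12 members in each of the 12 libraries, with the mean and standard deviation of each group (n = 3). Vamp2, Syt1, Syn1, Cplx2, Rims1 and Stxbp5l are lower and Syt4, Rims4 and Stx11 higher in Model and rt-PA than in Sham, and in rt-PA+Acu most lie nearer to Sham.

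With a term for the split seen at Rpl39 in a fit over all 12 libraries, 12 members passed by adjusted p alone in Model against Sham, 6 higher and 6 lower, and all 12 were among the 30; 28.3% of all genes passed. The term is set only by Model replicate 3 against its group mates, so this count rests on that library and is not held against the 30. When Model replicate 3 alone stood for Model, the median log2 fold change was -0.167 over the members and -0.002 over all genes. Only the Sham libraries give the spread in that fit, and the library was picked after it was seen to stand apart, so no count of passing members is given for it.

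Because members moved in opposite directions in the same libraries, ratios between paired members were also taken within each library. A ratio of 2 counts from 1 library does not depend on the scaling between libraries, and the pairs were chosen after the values were seen, so no test is given. Syt4 to Syt1, an activity-induced synaptotagmin against the fast sensor, was 0.279, 0.252 and 0.256 in Sham and 0.751, 0.689 and 0.580 in Model. It was 0.825, 0.528 and 0.585 in rt-PA and 0.248, 0.236 and 0.328 in rt-PA+Acu. The Sham and rt-PA+Acu values overlapped, and the other 6 libraries were all higher. Rims4 to Rims1 had group means of 0.110 ± 0.0187 for Sham and 0.150 ± 0.0456 for rt-PA+Acu, below 0.288 ± 0.0622 for Model and 0.390 ± 0.0959 for rt-PA (SD, n = 3).

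For 2 other ratios, rt-PA+Acu lay between. Snap25 to Vamp2, a plasma membrane SNARE against its vesicle partner, ran from 2.01 to 2.68 in Sham and from 2.76 to 3.48 in rt-PA+Acu, below the 4.04 to 4.27 of Model and the 3.92 to 4.29 of rt-PA. Cplx2 to Snap25 ran from 0.251 to 0.339 in Sham and from 0.106 to 0.155 in rt-PA+Acu, above the 0.0473 to 0.0683 of Model and the 0.0327 to 0.0642 of rt-PA. In both, no rt-PA+Acu library reached the Sham range or the range of Model and rt-PA.

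The question for rt-PA against Model is what late thrombolysis adds to the stroke. More members lay lower than higher in rt-PA, Syt10 and Stx1a among them, and Stxbp2 and Vamp8 lay higher, but 0 of 59 members were called with edgeR's quasi-likelihood test, where 0% of all 12941 genes were called. By adjusted p alone the edgeR count was also 0. In edgeR, 9 members had an unadjusted p under 0.05, 4 higher and 5 lower, beside 9.92% of all genes. DESeq2 gave 3 members with an adjusted p under 0.05, Syt5, Syt10 and Vamp8. The share of all genes that passed in DESeq2 is not given, so nothing is read from that count. The groups did not overlap at 16 of 59 members (27.1%), beside 16.0% of all genes. The members' median was -0.06 log2 and that of all genes 0.00. With library size alone these were -0.013 and 0.053.

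Syt10 read 20.9, 18.8 and 10.5 CPM in Model and 4.16, 7.24 and 8.25 CPM in rt-PA. The rt-PA libraries were all below the Model libraries and near the Sham level, a difference of -1.35 log2 (edgeR quasi-likelihood test, adjusted p = 0.334). Vamp8, a SNARE of granule release in blood cells and of lysosomal fusion, read 8.55, 11.8 and 10.9 CPM in Model and 19.2, 16.0 and 17.2 CPM in rt-PA, each rt-PA library above each Model library. Stx1a read 309, 290.2 and 277 CPM in Model and 200.4, 225 and 238 CPM in rt-PA, also without overlap. A p that misses the threshold with 3 libraries a group does not show that these levels were alike.

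Of the tested genes of regulated release, 17 of 36 rose when acupuncture was added to rt-PA, beside 17.0% of all genes, and many of these passes end when 1 library is left out. All 3 synapsins, Syt1, Syt3, Syt11, Stx1a, Sv2a, Sv2b, Rims3 and the complexin Cplx2 rose, and Syt4, Sv2c and Rims4, which had risen in the stroke cortex, fell. Syt5 and Syt10, which had also risen there, did not pass. Stx11 and Stxbp2 fell as well. The question is what acupuncture changes in rats that receive thrombolysis, and no group separates it from rt-PA.

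In this comparison 7 of 59 members were called, where 15.3% of all genes were called. By adjusted p alone, 18 rose and 7 fell, 25 of 59, beside 34.8% of all genes. In the higher direction this is 30.5% of members beside 17.0% of all genes, and in the lower direction 11.9% beside 17.7%. The median log2 fold change was 0.28 over the members and -0.003 over all genes. Of the 36 tested genes of regulated release, 17 rose and 4 fell, with a median of 0.55, and of the 22 of general traffic 1 rose and 3 fell, with a median of 0.08. Scaling by library size alone moves the median of all genes to -0.1 and that of the members to 0.17.

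These counts depend on single libraries. By adjusted p alone, 6 members passed without rt-PA+Acu replicate 2 (18.9% of all genes), 8 without rt-PA replicate 1 (20.5%), 11 without rt-PA+Acu replicate 1 (21.5%) and 12 without rt-PA replicate 3 (22.4%). The whole table lost calls as well, but the members lost more. In each of these fits the share of the tested members that passed was below that of all genes. With all 6 libraries it was above, 42.4% beside 34.8%. Without rt-PA+Acu replicate 3 the count by adjusted p alone was 30, beside 41.1% of all genes. Called members numbered 3 without rt-PA replicate 1, 3 without rt-PA+Acu replicate 1 and 3 without rt-PA+Acu replicate 2. The shares of all genes called in these fits are not given, so the fall in called members is not set against the whole table. The number of libraries in the fit falls with each, from 6 to 5.

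Cplx2 read 68.1, 157 and 146 CPM with rt-PA and 397, 415 and 183 CPM with rt-PA+Acu. The third rt-PA+Acu library lay just above the highest rt-PA library, the other 2 far above, and Cplx2 rose by 1.42 log2 (edgeR quasi-likelihood test, adjusted p = 0.0266). Over the 14 alternatives its difference ran from 1.13 to 1.72 and its adjusted p in edgeR or DESeq2 from 0.00045 to 0.0879. It did not pass without rt-PA replicate 1 or 3 or without rt-PA+Acu replicate 1 or 2, or with the replicate number as a block. Stxbp5l read 68.8, 106 and 74.0 CPM with rt-PA and 184, 202 and 155 CPM with rt-PA+Acu. Its groups lay far apart, and it rose by 1.12 log2 (edgeR quasi-likelihood test, adjusted p = 0.00509) and passed in all 14 alternatives.

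The synapsins rose together. Syn1 read 282, 364 and 371 CPM with rt-PA and 689, 723 and 516 CPM with rt-PA+Acu. Each rt-PA+Acu library was above each rt-PA library, and Syn1 rose by 0.92 log2 (edgeR quasi-likelihood test, adjusted p = 0.00739). Syn2 read 134, 192 and 192 CPM with rt-PA and 269.8, 342 and 285 CPM with rt-PA+Acu, a rise of 0.79 log2 (edgeR quasi-likelihood test, adjusted p = 0.0119), although it had not passed in Model against Sham. Syn3 read 43.3, 66.8 and 38.3 CPM with rt-PA and 85.3, 95.5 and 87.8 CPM with rt-PA+Acu, again without overlap, and rose by 0.86 log2 (edgeR quasi-likelihood test, adjusted p = 0.0163). Syn1 and Syn2 passed in all 14 alternatives, and Syn3 did not without rt-PA replicate 1 (0.77 log2) or without rt-PA+Acu replicate 2 (0.81 log2).

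Of the synaptotagmins, Syt14 read 8.18, 12.8 and 13.1 CPM with rt-PA and 26.3, 22.0 and 31.4 CPM with rt-PA+Acu. No libraries overlapped, and Syt14 rose by 1.22 log2 (edgeR quasi-likelihood test, adjusted p = 0.00741). Syt17 read 24.7, 16.3 and 17.8 CPM with rt-PA and 30.7, 64.1 and 37.0 CPM with rt-PA+Acu and rose by 1.16 log2 (edgeR quasi-likelihood test, adjusted p = 0.0205). Syt2 read 11.9, 16.3 and 18.0 CPM with rt-PA and 64.6, 24.6 and 31.1 CPM with rt-PA+Acu. The first rt-PA+Acu library stood far above the rest of its group, and Syt2 rose by 1.38 log2 (edgeR quasi-likelihood test, adjusted p = 0.0233). Without that library the difference was 0.86. That library also had the highest sum of 7 oligodendrocyte markers, with Mbp the most abundant and 0 of the 7 at 0 in all libraries: 21270.0 CPM, beside 8825 and 3267 CPM in its group mates. Syt1 rose by 0.84 log2, from 271, 403 and 362 CPM to 580.3, 757 and 519.6 CPM, and did not pass, at 0.67 log2, without rt-PA+Acu replicate 2. Syt3 rose by 0.86 log2 and did not pass, at 0.74 log2, without that library. Syt2 did not pass without rt-PA replicate 1, 2 or 3 (1.22, 1.42 and 1.51 log2), and Syt17 did not without rt-PA replicate 2 or 3 or rt-PA+Acu replicate 2 (1.04, 1.10 and 0.79 log2).

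The SNAREs moved less. Stx1a rose by 0.47 log2. Snap25 read 2082, 2444 and 2574 CPM with rt-PA and 2951, 2679 and 1737 CPM with rt-PA+Acu, with the third rt-PA+Acu library below every rt-PA library. Its difference was 0.05 log2, and it was -0.06 with library size alone. Vamp2 read 509, 624 and 600.4 CPM and then 847, 935 and 628 CPM, a difference of 0.47 log2 that did not pass (edgeR quasi-likelihood test, adjusted p = 0.0641). Without rt-PA+Acu replicate 3 Vamp2 differed by 0.63 log2 and passed (edgeR quasi-likelihood test, adjusted p = 0.0107). Stx1a lost the threshold when rt-PA replicate 1, 2 or 3 or rt-PA+Acu replicate 1 or 2 was left out, at differences of 0.37 to 0.53 log2.

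Sv2a rose by 0.59 log2, Sv2b by 0.66 log2 and Rims3 by 0.82 log2, while Sv2c fell by 0.78 log2. None of these SV2 genes passed without rt-PA replicate 1 or 3 or without rt-PA+Acu replicate 1 or 2, and Rims3 did not without rt-PA replicate 1 (0.71 log2) or rt-PA+Acu replicate 1 or 2 (0.77 and 0.83 log2). Over all fits without 1 library, Sv2a differed by 0.48 to 0.73, Sv2b by 0.42 to 0.80 and Sv2c by -1.0 to -0.55 log2. Rims4 read 68.4, 72.9 and 88.3 CPM with rt-PA and 43.9, 41.5 and 43.6 CPM with rt-PA+Acu. The rt-PA+Acu libraries formed a tight band below, and Rims4 fell by 0.83 log2 (edgeR quasi-likelihood test, adjusted p = 0.0038). Rims1 and Rims2 had differences of 0.56 and 0.50 log2 and did not pass; without rt-PA+Acu replicate 3 these were 0.76 and 0.68, and both passed. Stx11 read 7.97, 5.52 and 3.83 CPM with rt-PA and 1.94, 1.31 and 3.07 CPM with rt-PA+Acu, lower in each library, and fell by 1.44 log2 (edgeR quasi-likelihood test, adjusted p = 0.0297). Stxbp2 fell by 1.15 log2. For Stx11 and Stxbp2, leaving out rt-PA replicate 1 or 2, or rt-PA+Acu replicate 1 or 2, ended the pass, at differences of -1.48 to -1.14 and -1.13 to -0.97 log2.

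Model against Sham and rt-PA+Acu against rt-PA share no library. Among the 59 members, 50 had opposite signs in these comparisons (84.7%), beside 81.6% of 12753 genes, so the members turned about as often as the table did. Of the 30 members past the adjusted p in the first comparison and the 25 in the second, 18 passed in both (60% and 72%), beside 54% and 83.7% for all genes. All 18 had opposite signs, as had 3715 of the 3729 genes that passed in both, so the members did as the whole table did. Cplx2, Syt14, Syt17, Stxbp5l and Stx11 were called in both. Syt10 had the same sign in both, 1.25 and 0.10 log2.

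**Figure D3:**
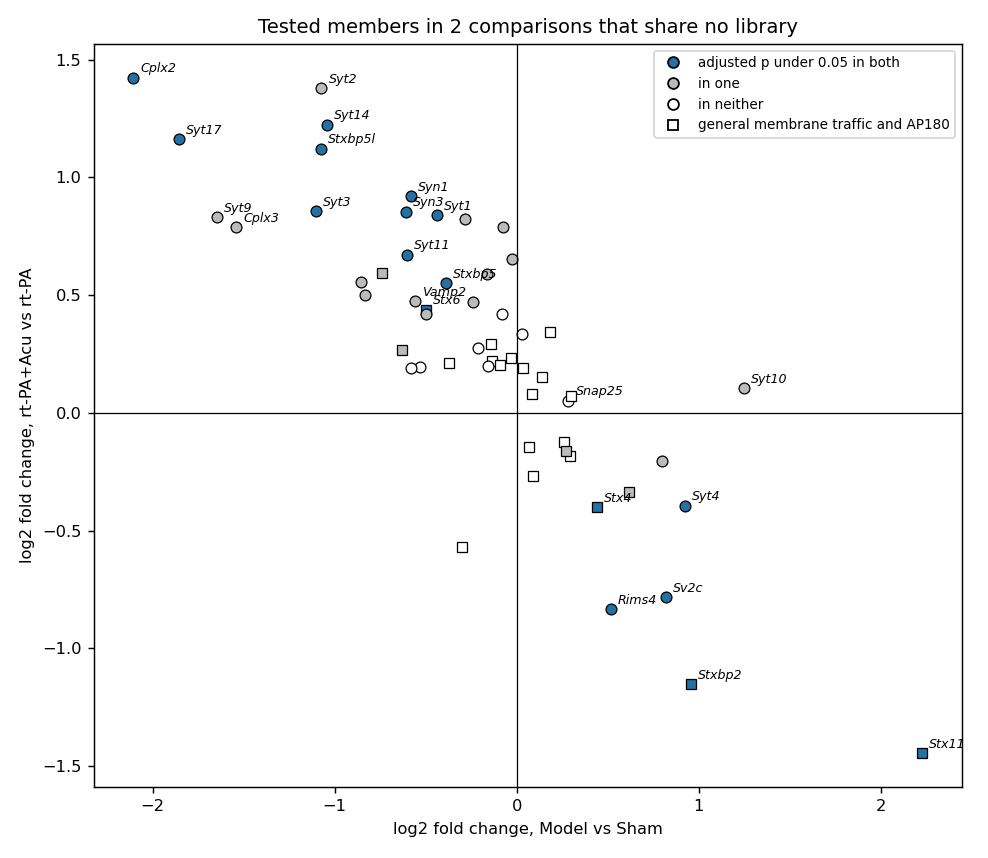
Log2 fold change of tested members in Model against Sham (horizontal) and in rt-PA+Acu against rt-PA (vertical), 2 comparisons without a shared library. Blue symbols passed an adjusted p of 0.05 in both, grey in 1 and white in neither, and squares are genes of general traffic and AP180. All blue symbols lie in the upper left or lower right part.

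The remaining comparisons set the treated rats against Sham and share the Sham libraries with each other and with Model against Sham. In rt-PA, Cplx2, Rims1, Rims2, Syt9 and Syt17 were called lower and Stx11, Stxbp2 and Sv2c higher, 8 of 59, where 22.6% of all genes were called. Rims2 and Sv2c lie near the 2-fold line: leaving out 1 library took Rims2 as far as -0.91 log2 and Sv2c to 0.94 log2, which ends those calls, though both kept an adjusted p under 0.05. By adjusted p alone 30 of 59 passed, beside 54.7% of all genes: 8 members rose and 22 fell, beside 27.4% and 27.3% of all genes. Of the members, all 3 synapsins and Stx1a were among those that fell. Syn2 and Syn3 did not pass without Sham replicate 1, 2 or 3 or without rt-PA replicate 1 or 3, at -0.53 to -0.30 and -0.55 to -0.37 log2, and neither passed with library size alone (-0.32 and -0.39 log2). With the term for the split seen at Rpl39, 3 of 59 passed by adjusted p alone, beside 14.3% of all genes. All Sham libraries lie on one side of that split and all rt-PA libraries on the other, so this count rests on Model replicate 3 and nothing is read from it. In this comparison, scaling by library size alone moves the median of all genes from 0.003 to 0.149 and that of the members from -0.24 to -0.106. Cplx2 fell by 2.41 log2 and Rims1 by 1.28 log2 (edgeR quasi-likelihood test, adjusted p = 0.000352 and 0.000925), with all rt-PA libraries, 68.1 to 157 CPM and 145 to 257 CPM, below all Sham libraries. Stxbp2, at 8.04, 7.46 and 6.04 CPM in rt-PA, rose by 1.62 log2 (edgeR quasi-likelihood test, adjusted p = 0.000617).

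In rt-PA+Acu against Sham, 0 of 59 members were called with edgeR's quasi-likelihood test, where 2.06% of all genes were called. By adjusted p alone the edgeR count was again 0, beside 5.10% of all genes (1.70% higher and 3.40% lower). In edgeR, 12 members had an unadjusted p under 0.05, 6 higher and 6 lower, beside 23.2% of all genes. DESeq2 gave 4 members with an adjusted p under 0.05, Cplx2, Rims1, Stxbp5l and Syn3. The share of all genes that passed in DESeq2 is not given here either, so nothing is read from that count. Without rt-PA+Acu replicate 3, 5 members passed in edgeR, 3 higher and 2 lower. The share of all genes that passed without that library is not given, so this count is not read as a result about the members. The groups did not overlap at 13 of 59 members, beside 30.7% of all genes. A missed threshold does not show that these levels had returned to Sham.

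Cplx2 and Rims1 show what such a count leaves out. Cplx2 read 569, 720.1 and 663 CPM in Sham and 397, 415 and 183 CPM in rt-PA+Acu. All rt-PA+Acu libraries were below all Sham libraries, a difference of -0.97 log2 (edgeR quasi-likelihood test, adjusted p = 0.0863). Rims1 read 461, 506 and 511 CPM in Sham and 344, 346 and 215 CPM in rt-PA+Acu, also lower in each library, a difference of -0.71 log2 (edgeR quasi-likelihood test, adjusted p = 0.0627). Syn3 lay the other way, at 69.9 to 72.1 CPM in Sham and 85.3 to 95.5 CPM in rt-PA+Acu (0.34 log2; edgeR quasi-likelihood test, adjusted p = 0.0711).

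Summed over members, the roles differed in how far they moved, though a sum mainly follows its most abundant genes. The most abundant was Cplx2 for the regulators that bind the SNARE bundle, Rims1 for the RIM genes and Stx12 for the SNAREs of general traffic. The complexins, tomosyns and Stxbp6 summed to 969, 1111 and 1066 CPM for Sham and 454, 389.5 and 444 CPM for Model. The sums were 339, 468 and 411 CPM for rt-PA and 859, 912 and 614 CPM for rt-PA+Acu. The 4 RIM genes summed to 762 to 837 CPM for Sham and 410.4 to 618 CPM for rt-PA+Acu, where no library reached the Sham range, and to 449 to 559 CPM for Model and 329 to 474 CPM for rt-PA. The 19 SNAREs of general traffic summed to 979 to 1104 CPM in all 12 libraries, although 4 of them rose and 2 fell in Model against Sham.

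**Figure D4:**
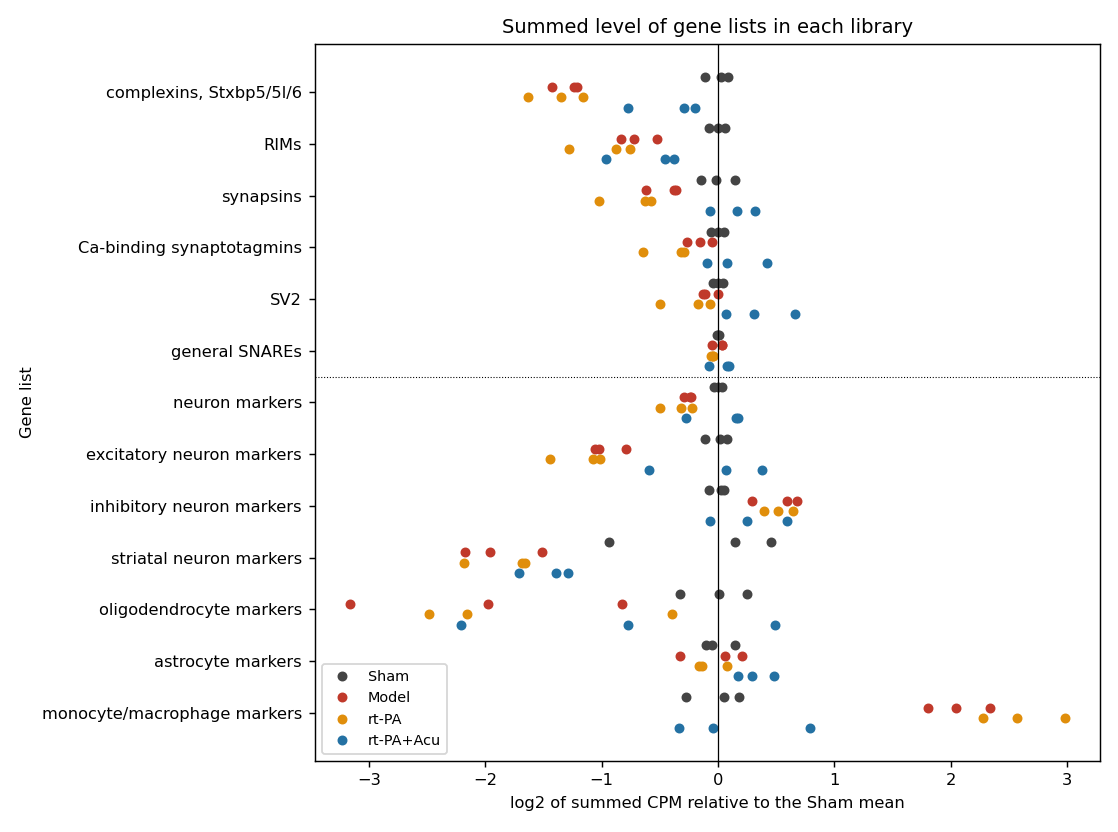
Summed CPM of lists of members (above the dotted line) and of cell type markers (below it) in each of the 12 libraries, as log2 of the ratio to the mean of the 3 Sham libraries. Complexins, summed with the other regulators that bind the SNARE bundle, lie furthest left in Model and rt-PA among the members. Striatal markers are low in all 9 stroke libraries.

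Markers of neurons did not move as one. The 12 general neuron markers, with Map2 the most abundant and none at 0, summed to 6157, 6014 and 6340.0 CPM in Sham and 5249, 5219 and 5029 CPM in Model. Of these markers, 2 rose and 4 fell, with a median of -0.053 log2. Map2 alone read 2340.5, 2157 and 2085 CPM in Sham and 1208, 1069 and 934 CPM in Model, so it weighs most in the lower sum. The 12 markers summed to 4383, 5279 and 4940.0 CPM with rt-PA and 6873, 6956 and 5090.0 CPM with rt-PA+Acu, where 4 rose and 1 fell against rt-PA. The 6 excitatory neuron markers, with Slc17a7 the most abundant and none at 0, summed to 1901, 1737 and 1979 CPM in Sham and 902, 922 and 1085 CPM in Model, and 1 rose and 5 fell. With rt-PA they summed to 690.5, 928 and 889.9 CPM and with acupuncture added to 1961, 2429 and 1239 CPM. Of the 6 inhibitory neuron markers in the table, with Gad1 the most abundant, 2 rose and 0 fell in Model. The part of excitatory and inhibitory neuron content in the levels of release genes was not tested.

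Other cell types moved too. The 7 oligodendrocyte markers summed to 12100.0 to 18030.0 CPM for Sham and 1693, 3839 and 8556 CPM for Model, where 6 of the 7 fell. They summed to 2706, 11520.0 and 3386 CPM for rt-PA and 3267 to 21270.0 CPM for rt-PA+Acu. The 6 monocyte and macrophage markers, with Lyz2 the most abundant and none at 0, summed to 72.3, 79.1 and 57.6 CPM for Sham and 287, 243 and 353 CPM for Model. They summed to 549.9, 413 and 338 CPM for rt-PA and 55.3, 67.7 and 120.5 CPM for rt-PA+Acu. Stx11 was also higher in those 6 Model and rt-PA libraries than in the others, and what these cells add to its level was not tested. Of the 7 astrocyte markers, 1 rose and 6 fell in Model, and of the 6 microglia markers 1 rose and 5 fell. In rt-PA+Acu against rt-PA, 6 of the 7 astrocyte markers rose and 0 fell. There, all 4 tested endothelial markers fell, as did 4 of the 5 tested neutrophil markers.

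Some members share their stretch of genome with another gene, which matters because the use of strand in counting is not stated. In RefSeq on build GRCr8, 10 of the 62 members overlap another protein-coding gene. Each synapsin gene overlaps a gene for a tissue inhibitor of metalloproteinases: Syn1 with Timp1, Syn2 with Timp4 and Syn3 with Timp3. Timp1 read 2.18, 2.14 and 2.01 CPM in Sham and 229, 314 and 141 CPM in Model, and Syn1 was lower there. Timp1 read 468, 138 and 406 CPM with rt-PA and 23.2, 13.9 and 56.5 CPM with rt-PA+Acu, and Syn1 was higher in the latter. Timp4 read 14.5, 19.9 and 19.8 CPM in Sham and 3.05, 2.62 and 4.21 CPM in Model, while Syn2 overlapped between the groups. In rt-PA+Acu against rt-PA, Timp4 rose from 2.50, 2.73 and 3.17 CPM to 14.3, 7.93 and 7.19 CPM, the same direction as Syn2. Timp3 fell there, from 50.9, 35.3 and 60.2 CPM to 26.2, 18.3 and 26.1 CPM, while Syn3 rose, and in Model against Sham Timp3 overlapped between the groups. In these pairs Syn1 and Timp1 moved in opposite directions in both comparisons, and how reads in shared stretches were assigned was not tested. Among the others, Syt1 overlaps Brcc3dc, Stx3 overlaps Cblif and Mrpl16, Stx19 overlaps Arl13b, Rims4 overlaps Kcnk15, Vamp7 overlaps Cyp3a9 and Syt8 overlaps Tnni2.

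Genes that work beside the members were counted too. Lists of priming factors, CAPS and synaptotagmin-like genes, Rab3 and Rab27 with effectors, SNARE disassembly, vesicle endocytosis and vesicle tetraspan proteins held 58 genes, of which 54 were tested in Model against Sham: 10 rose and 25 fell, with a median of -0.13 log2, beside 3519 genes that rose and 3432 that fell of all 12884. For Rab3, Rab27 and effectors, which bring vesicles to the RIM scaffold, 1 of 12 rose and 7 fell. Of the 12 genes of the active zone and priming, 3 rose and 6 fell, and of the 4 of SNARE disassembly 0 rose and 2 fell. In rt-PA+Acu against rt-PA, 16 of 55 rose and 4 fell, with a median of 0.32 log2, beside 2216 and 2306 of all 12999 genes. In rt-PA+Acu against Sham, 1 rose and 1 fell.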

How the data were processed

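The authors sequenced poly(A) RNA as paired-end reads of 150 bases and aligned them to mRatBN7.2 with STAR 2.7.10a. They deposited raw counts per gene symbol; the study's methods name Salmon 1.9.0 for counting, and the submitters' processing notes also list featureCounts 2.0.1 without a role. The members were taken by symbol and not by their values, but the set of symbols and the lists were chosen with earlier results of these data known. Each comparison was fitted on its 6 libraries with edgeR 4.0.16 (TMM scaling, filterByExpr, quasi-likelihood test) in R 4.3.3, after tests on simulated data, and p-values were adjusted over all genes tested. DESeq2 1.42.0 was the other tool. Named genes were a fixed core list plus up to 5 called members per direction with a mean of at least 1 CPM in Model against Sham, rt-PA+Acu against rt-PA and rt-PA against Sham; other members, ratios, overlapping genes and motifs were chosen after values were seen, and longer motif forms that were searched are not given. Alternatives changed the scaling, filter, tool, call rule and libraries. The fits with a term for the split of libraries, and with Model replicate 3 alone, were added after seeing the data. Plots used Python 3.11.15 and matplotlib 3.10.9, and the scripts also used pandas 2.3.3. Some members are counted but not reported singly here.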

Additional observations from a re-analysis of the deposited data

How the results depend on the processing

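Over the alternatives, 129 counts of members stayed within 1.5 times their first value and 23 did not; of the values of single named genes, 948 kept direction and side of the threshold, 110 lost and 18 gained the threshold, and 16 changed sign. In Model against Sham, called members numbered 8 to 11 and members past the adjusted p 26 to 31 when 1 library was left out. For rt-PA against Model both counts were 0 to 0, for rt-PA+Acu against rt-PA they were 3 to 9 and 6 to 30, for rt-PA against Sham 7 to 11 and 25 to 33, and for rt-PA+Acu against Sham 0 to 0 and 0 to 5. Without the fold change threshold, called members numbered 30 in Model against Sham, 25 in rt-PA+Acu against rt-PA and 30 in rt-PA against Sham. With the term for the split of libraries, called members numbered 5 in Model against Sham and 3 in rt-PA against Sham, and members past the adjusted p 12 and 3; the term is set by Model replicate 3 against its group mates alone, so these counts rest on 1 library, and the cause was not tested. DESeq2 called 1 member in rt-PA against Model and gave 3 past the adjusted p, and it gave 4 in rt-PA+Acu against Sham. At unadjusted p, 1 member was called in rt-PA against Model and 1 in rt-PA+Acu against Sham, and scaling by library size alone gave 2 past the adjusted p in the latter. Shares of all genes are not given for the counts of members in this paragraph, so none is read as a result about the members.

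With the replicate number of the labels as a block, 3 members were called in rt-PA+Acu against rt-PA and 13 passed the adjusted p; Cplx2, Syt2, Syt17, Stx1a, Sv2a, Sv2c and Stx11 did not. The labels do not say that the numbers pair rats, and deviations of libraries with the same number correlated at -0.12 to 0.15, so no pairing was assumed.

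Sign changes were of small values. In Model against Sham, library size alone turned Sv2b to 0.04, and Vamp3 was -0.01 both with the split term and with Model replicate 3 alone. Leaving out 1 library gave Vamp1 from -0.10 to 0.25, Syn2 from -0.16 to 0.07 and Sv2b from -0.06 to 0.01. In rt-PA+Acu against rt-PA, library size alone turned Snap25 to -0.06, and leaving out 1 library gave Snap25 from -0.10 to 0.26 and Syt10 from -0.18 to 0.30. Depth limits Stx11, Stxbp2, Syt9 and Cplx3, which had few counts per library.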
